A study of Homo sapiens with 4 samples.

Results

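The 10 genes described here code for cell adhesion proteins of 2 junction types. They are the cadherins CDH1, CDH2, CDH3 and CDH11, the desmosomal cadherins DSG2, DSC2 and DSC3, and the desmosome plaque proteins DSP, JUP and PKP2. They were taken by name from the gene count tables, as 10 of 18923 protein-coding gene names (29655 names of all kinds). RNA-seq was done on UMSCC74B, an established line of head and neck squamous cell carcinoma (HNSCC), at 72 h after transfection with plasmids that carried a control shRNA or an shRNA against PRMT5, the main enzyme that makes symmetric dimethylarginine. Each group had 2 libraries of total RNA, all from cells grown in DMEM with 10% FBS and kept without antibiotic during the 72 h. The study's methods instead describe transduction with lentiviral particles made from the shRNA plasmids, also for 72 h. The control libraries are labelled WT and the others PRMT5 KD, and no other allele or agent is given in the labels. Nothing in the labels says whether the replicates came from separate cultures, so the p-values measure only the spread between these libraries, which may be technical.

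Cadherins are calcium-dependent receptors that bind their like on a neighbouring cell. Classical cadherins such as E-cadherin (CDH1) and N-cadherin (CDH2) hold the adherens junction and bind β-catenin or plakoglobin on the inside. In a desmosome, desmogleins and desmocollins take the place of the classical cadherins, plakoglobin and plakophilins bind their tails, and desmoplakin ties the plaque to intermediate filaments. Squamous epithelium is rich in desmosomes and in E- and P-cadherin, while mesenchymal cells typically carry N-cadherin and cadherin-11.

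The libraries held 52185289 to 65964558 counts each. Ribosomal RNA genes took 15.3% and 14.2% of the control counts, against 26.2% and 18.0% in the libraries labelled PRMT5 KD. Levels are given in CPM, the count scaled to a common library size over the genes tested. For PRMT5 itself the control libraries gave 94.3 and 84.2 CPM, and those labelled PRMT5 KD gave 132 and 150 CPM. The gene named as the target was therefore higher, not lower, in those libraries, by a log2 fold change of 0.66 ± 0.12 (SE, edgeR quasi-likelihood test with Benjamini-Hochberg adjustment, adjusted p = 0.00546). This goes against the label at the RNA level, although the study reports silencing by the PRMT5 shRNA on an immunoblot. Protein was not measured here, and the groups are named below by their labels only. Without control replicate 2 the edgeR adjusted p was 0.0678.

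The labelled cell type was also compared with its markers. KRT5, KRT14 and KRT6A, the keratins of basal and activated squamous cells, were under 1 CPM in all 4 libraries. The 10 squamous markers summed to 87.6 and 85.1 CPM in the control libraries and to 63.4 and 92.7 CPM in those labelled PRMT5 KD, and KRT18, a keratin of simple epithelium, made up most of this sum with 51.5 to 73.5 CPM. Single markers differed in direction. TP63 stood at 6.05 ± 0.77 and 2.38 ± 0.90 CPM and KRT8 was also called lower (log2 fold change -0.85), while KRT17 stood at 0.123 ± 0.005 and 1.3 ± 0.26 CPM, SFN at 0.0878 ± 0.017 and 1.19 ± 0.86 CPM and KRT14 at 0 and 0.343 ± 0.159 CPM (SD, n = 2). VIM, the intermediate filament of mesenchymal cells, reached 1856 ± 93.0 CPM in the control libraries and 2442 ± 100.4 CPM in the others. The 8 fibroblast markers summed to 850 and 992 CPM in the control libraries and to 442 and 297 CPM in those labelled PRMT5 KD, 7 of them being lower and POSTN higher. Endothelial markers summed to 11.1 and 14.9 CPM in the control libraries against 2.19 and 1.34 CPM, with CDH5, TEK and EMCN under 1 CPM in every library. Leukocyte markers summed to between 130.4 and 171.8 CPM over the 4 libraries, with CD3E at 0 and PTPRC under 1 CPM. Within this list CD68 took most of the sum (94.6 to 169.5 CPM) and was called higher, at 103.8 ± 13.0 against 161 ± 12.1 CPM. CD14, a monocyte receptor, was called lower, at 37.3 ± 3.8 against 1.47 ± 0.56 CPM (SD, n = 2). Neural or melanocyte markers summed to between 99.7 and 126.3 CPM, with MLANA and SOX10 at 0. Marker levels thus did not follow the squamous label, and their part in the results below was not tested.

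Promoter sequence was available for 6 of the 10 genes from RefSeq (GRCh38.p14), as the 250 bases before each annotated start. It is shown for the gene with the clearest difference (JUP), for the most abundant desmosomal cadherin (DSG2) and for desmoplakin (DSP). It is also shown for CDH2, the highest in level among CDH1, CDH2, CDH3 and CDH11. Each runs 5′ to 3′ on the strand of the gene, and capitals mark CAGGTG, searched on both strands and so also as CACCTG, a form of the E-box that the SNAI and ZEB repressors of CDH1 are known to bind. The windows are chr17:41785977-41786226 (minus strand) for JUP, chr18:31497927-31498176 (plus strand) for DSG2, chr6:7541421-7541670 (plus strand) for DSP and chr18:28177131-28177380 (minus strand) for CDH2.
JUP: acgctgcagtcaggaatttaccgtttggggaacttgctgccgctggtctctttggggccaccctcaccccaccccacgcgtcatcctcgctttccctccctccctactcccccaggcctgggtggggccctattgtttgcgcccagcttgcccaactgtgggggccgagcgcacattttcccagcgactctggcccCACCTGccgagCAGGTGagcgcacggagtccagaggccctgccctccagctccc
DSG2: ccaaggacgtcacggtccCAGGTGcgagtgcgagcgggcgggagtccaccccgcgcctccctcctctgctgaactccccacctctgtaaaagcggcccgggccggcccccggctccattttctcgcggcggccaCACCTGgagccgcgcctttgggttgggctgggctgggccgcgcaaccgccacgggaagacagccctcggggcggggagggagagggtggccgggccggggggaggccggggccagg
DSP: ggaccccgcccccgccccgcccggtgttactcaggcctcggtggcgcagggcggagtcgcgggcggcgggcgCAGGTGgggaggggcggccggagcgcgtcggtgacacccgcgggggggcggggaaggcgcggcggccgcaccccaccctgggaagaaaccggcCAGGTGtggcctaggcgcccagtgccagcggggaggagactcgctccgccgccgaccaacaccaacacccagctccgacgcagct
CDH2: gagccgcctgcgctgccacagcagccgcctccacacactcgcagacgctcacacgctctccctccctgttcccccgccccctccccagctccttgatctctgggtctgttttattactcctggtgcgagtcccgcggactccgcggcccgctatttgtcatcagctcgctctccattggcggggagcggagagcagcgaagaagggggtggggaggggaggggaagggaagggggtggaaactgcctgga
The letters occurred in 4 of the 9 windows of these genes, namely in those of DSP, of DSG2, of the JUP start shown and of 1 of the 2 DSC2 starts. In JUP they lay 54 and 43 bases before the start, in DSG2 232 and 116 bases, in DSP 178 and 85 bases and in DSC2 156 bases. The windows of CDH2 and DSC3, the other JUP start and the other DSC2 start did not hold them. Of all 34796 windows of the same length, 17.5% held the motif. Among the 9 windows, GC content was 59.6% to 78% in those with the motif and 42% to 66.8% in those without. The part of GC content was not tested, and 4 of 9 is read as no result about these genes. A match is a description of the letters and not a binding site.

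Of the 10 genes, 3 were called lower in the libraries labelled PRMT5 KD, 3 were tested without a call, and 4 (CDH1, CDH3, DSC3 and PKP2) lay under the level set for testing, which was 0.5 RPKM in every library of at least 1 group. A call required an adjusted p under 0.05 and a log2 fold change of at least 0.5 in size. Among all 11898 genes tested, 45.5% were called, 21.2% higher and 24.3% lower, and 3 lower calls among 10 genes, 6 of them tested, are read as no result about the 10 as a set. CDH11 passed the level through the control libraries alone. With total counts in place of TMM scaling, the calls over all genes moved from 2522 higher and 2896 lower to 3509 higher and 2200 lower.

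**Figure D1:**
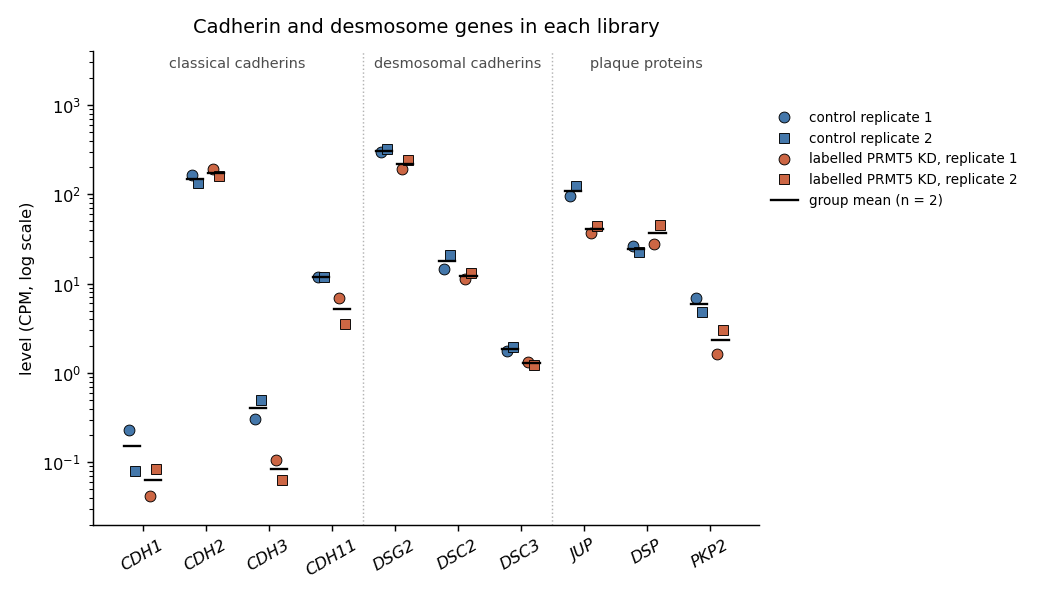
Level of each of the 10 genes in every library, in CPM on a log scale, grouped by role; circles and squares are replicates 1 and 2, blue is control, orange is labelled PRMT5 KD, and bars are means of 2 libraries. JUP is lower by about the same distance in both orange libraries, CDH2 overlaps between the groups, and CDH1 and CDH3 stay under 1 CPM throughout.

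Among the classical cadherins, N-cadherin was the dominant one. CDH2 (chr18:27932879-28177946 on GRCh38, minus strand) stood at 164 and 134 CPM in the control libraries and at 190 and 159 CPM in those labelled PRMT5 KD. The groups overlapped, and its log2 fold change was 0.22 ± 0.15 (SE), with a 95% interval from -0.14 to 0.59 and an edgeR adjusted p of 0.248. E-cadherin was nearly undetected. For CDH1 (chr16:68737292-68835537, plus strand) the control libraries held 9 and 4 counts and the others 2 and 4 counts. Its highest level was 0.227 CPM in control replicate 1, with an exact Poisson 95% interval of 0.104 to 0.432 CPM that covers counting error only. The summed counts gave a ratio of 0.434 with an interval of 0.135 to 1.22, so a difference in CDH1 was not detectable at this depth.

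P-cadherin, a partner of E-cadherin in basal epithelial cells, was also rare. CDH3 (chr16:68636189-68727468, plus strand) lies next to CDH1, with 9823 bases between them, and its counts were 12 and 25 under the control label and 5 and 3 under the PRMT5 KD label. The groups did not overlap, and the ratio of summed counts was 0.203 with a counting interval of 0.0817 to 0.443. In a fit without the level filter its log2 fold change was -2.18 ± 0.69 (SE, edgeR adjusted p = 0.0289), on these few counts. Both genes of the pair thus stayed under 0.5 CPM in every library of either group.

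Cadherin-11, the osteoblast and mesenchymal cadherin, was called lower. CDH11 (chr16:64943753-65126112, minus strand) stood at 12.0 and 11.9 CPM in the control libraries, a very narrow pair, and at 6.98 and 3.51 CPM in those labelled PRMT5 KD. Both libraries labelled PRMT5 KD lay below both controls, and they also lay apart from each other. The log2 fold change was -1.18 ± 0.32 (SE, edgeR adjusted p = 0.0252). Without PRMT5 KD replicate 2 it was -0.77, and without PRMT5 KD replicate 1 it was -1.73. Without control replicate 1 or 2 the call was lost, with edgeR adjusted p of 0.103 and 0.109, and correcting the libraries for exon length and GC gave -0.87 with an adjusted p of 0.0572. The 8 fibroblast markers given above moved in the same libraries, and their part in this result was not tested.

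CDH2 made up 96.9 ± 0.72% of the summed RPKM of the 5 type I cadherins (CDH1, CDH2, CDH3, CDH4 and CDH15) in the control libraries and 99.4 ± 0.03% in those labelled PRMT5 KD (SD, n = 2). RPKM divides the CPM by exon length, so that genes can be set beside each other. The shares per library were 97.4% and 96.4% against 99.4% and 99.4%. The groups did not overlap, but with 2 libraries against 2 an exact two-sided permutation test cannot give a p under 0.333, the value found here. Of the rest, CDH15, the cadherin of muscle cells, took 1.82 ± 0.61% and 0.263 ± 0.030%.

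**Figure D2:**
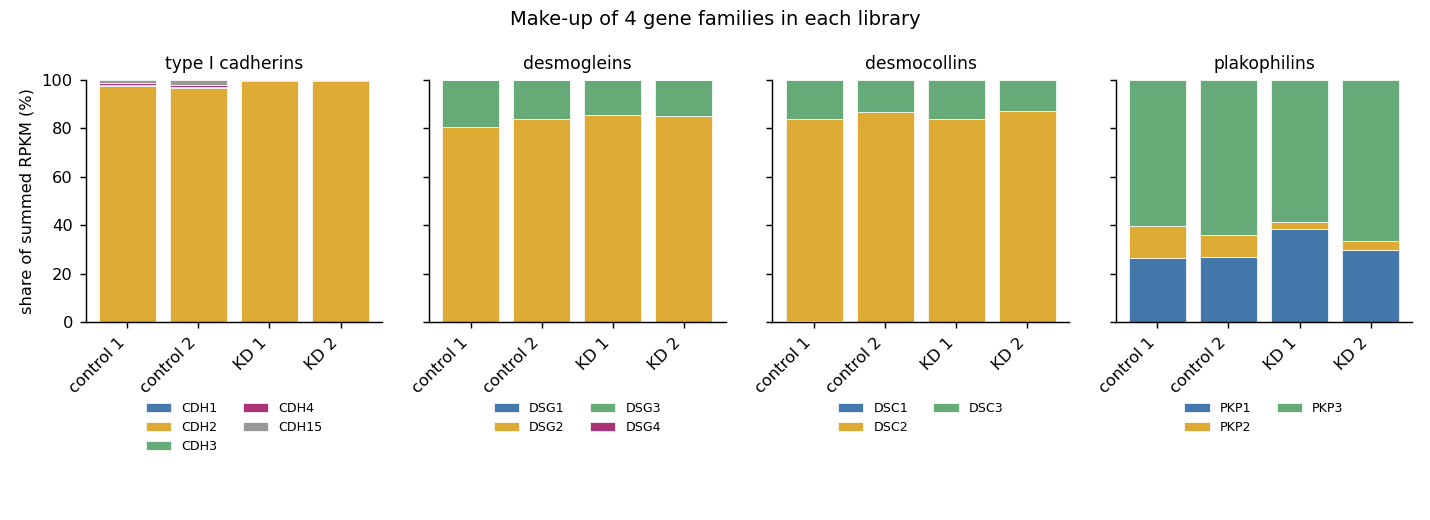
Share of each gene in the summed RPKM of its family, in percent, for the 2 control libraries and the 2 labelled PRMT5 KD (KD 1, KD 2). CDH2, DSG2 and DSC2 each take over 80% of their families in every library, while the PKP2 share of the plakophilins is smaller in both libraries labelled PRMT5 KD.

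Desmoglein-2, the desmoglein found wherever desmosomes form, had the highest RPKM of the 10 genes. DSG2 (chr18:31498177-31549008, plus strand) stood at 299 and 320 CPM in the control libraries and at 191 and 243 CPM in those labelled PRMT5 KD. The groups did not overlap. Its log2 fold change was -0.51 ± 0.15 (SE, edgeR adjusted p = 0.0284), which is a ratio of means of 0.701 and sits just past the size set for a call. The size was under 0.5 or the adjusted p over 0.05 in several settings: it was -0.46 without the level filter and -0.33 with total counts, and the edgeR adjusted p was 0.105 without control replicate 1, 0.165 without control replicate 2 and 0.0981 without PRMT5 KD replicate 1. The fold change was negative in the 15 other settings tried, of which the fold change threshold of 1 reuses the main fit. DSG2 lost its call in most of them, also with the length and GC correction (-0.32, edgeR adjusted p = 0.127).

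The desmocollins, its partners in the desmosome, were much lower in level. DSC2 (chr18:31058840-31102522, minus strand) stood at 14.7 and 20.7 CPM in the control libraries and at 11.2 and 13.3 CPM in those labelled PRMT5 KD. The groups did not overlap, but the nearest values of each were close. The log2 fold change was -0.53 ± 0.20 (SE), with a 95% interval from -1.02 to -0.05 and an edgeR adjusted p of 0.0634, so no call was made. Without PRMT5 KD replicate 2 the log2 fold change was -0.66, and without PRMT5 KD replicate 1 it was -0.37. Without control replicate 1 it was -0.76, and without control replicate 2 it was -0.27. With the length and GC correction it was -0.25, with an edgeR adjusted p of 0.345. DSC3 (chr18:30989365-31042815, minus strand), the desmocollin of stratified epithelium, held 70 and 98 counts under the control label and 63 and 59 counts in the other group. That is 1.77 and 1.96 CPM against 1.32 and 1.23 CPM, without overlap. The ratio of summed counts was 0.682 with a counting interval of 0.536 to 0.866, and the fit without the level filter gave -0.49 ± 0.32 (SE, edgeR adjusted p = 0.252).

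DSG2, DSC2 and DSC3 lie in a single cluster of 7 desmosomal cadherin genes on chromosome 18 that spans 559.6 kb, in the order DSC3, DSC2, DSC1, DSG1, DSG4, DSG3 and DSG2. DSC1, DSG1 and DSG4, the genes of the middle, which code for cadherins of the upper epidermis and hair, were at or near 0. DSC1 had 1 count in each control library and 0 in the others, DSG1 had 1 count in a single library, and DSG4 had 0 in all 4 libraries, where a count of 0 allows up to 3. DSG3, the desmoglein of basal squamous cells and the neighbour of DSG2, was detected at 39.7 ± 4.67 CPM in the control libraries and 22.1 ± 4.71 CPM in those labelled PRMT5 KD (SD, n = 2). It was called lower, with a log2 fold change of -0.85 ± 0.18 (SE, edgeR adjusted p = 0.00901). All genes of the cluster that were detected at over 1 CPM in every library, 4 in number, had lower means in the libraries labelled PRMT5 KD, and of these DSG2 and DSG3 passed the test.

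The make-up of the 2 families moved little. DSG2 took 82.0 ± 2.4% of desmoglein RPKM in the control libraries and 85.3 ± 0.54% in those labelled PRMT5 KD, and DSC2 took 84.9 ± 2.2% and 85.4 ± 2.2% of desmocollin RPKM (SD, n = 2). The exact permutation p was 0.333 for DSG2, the smallest possible, and 0.667 for DSC2. The sum of desmoglein RPKM was 39.7 ± 0.72 against 26.8 ± 4.8, and that of desmocollin RPKM 1.66 ± 0.35 against 1.15 ± 0.11. DSG2 thus exceeded DSC2 by a ratio of 23.6 ± 4.5 in the control libraries and 23.3 ± 1.1 in the others, which differed by less than the spread between replicates.

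Plakoglobin, the catenin that desmosomes and adherens junctions share, had the clearest difference of the 10 genes. JUP (chr17:41754604-41786931, minus strand) stood at 95.4 and 122 CPM in the control libraries and at 37.2 and 44.7 CPM in those labelled PRMT5 KD. Both control values were over 2 times those of the other group. The log2 fold change was -1.41 ± 0.16 (SE), with a 95% interval from -1.81 to -1.01 and an edgeR adjusted p of 0.00104, a ratio of means of 0.376. It was called in all 15 other settings tried, between -1.58 and -1.22. β-catenin (CTNNB1), its close relative and the catenin of the adherens junction, had a log2 fold change of -0.29 ± 0.13 (SE, edgeR adjusted p = 0.0997). Per RPKM, JUP was 0.382 ± 0.057 of CTNNB1 in the control libraries and 0.176 ± 0.027 in those labelled PRMT5 KD (SD, n = 2), without overlap.

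Desmoplakin, which links the plaque to keratin or vimentin filaments, did not follow plakoglobin. DSP (chr6:7541338-7586714, plus strand) stood at 26.6 and 22.5 CPM in the control libraries and at 27.5 and 45.8 CPM in those labelled PRMT5 KD. PRMT5 KD replicate 1 lay just above the controls and PRMT5 KD replicate 2 far above them. The log2 fold change was 0.58 ± 0.26 (SE), with a 95% interval from -0.06 to 1.22 and an edgeR adjusted p of 0.108, and no call was made. Without PRMT5 KD replicate 1 it was 0.94 (edgeR adjusted p = 0.000385), and without PRMT5 KD replicate 2 it was 0.17 (edgeR adjusted p = 0.396). With the length and GC correction it was 0.95 with an adjusted p of 0.0306. Per RPKM, DSP was 0.0840 ± 0.024 of JUP in the control libraries and 0.320 ± 0.073 in those labelled PRMT5 KD (SD, n = 2), without overlap.

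Plakophilin-2, the widespread plakophilin of desmosomes, was low in level. PKP2 (chr12:32790745-32896798, minus strand) held 276 and 238 counts under the control label and 77 and 145 counts under the PRMT5 KD label, which is 6.97 and 4.76 CPM against 1.62 and 3.03 CPM. Both control libraries were higher. The ratio of summed counts was 0.406 with a counting interval of 0.345 to 0.476. The gene missed the level for testing in control replicate 2, which stood at 0.462 RPKM on the TMM-scaled values given here. The fit without the filter gave -1.28 ± 0.34 (SE, edgeR adjusted p = 0.0173), past both parts of the call rule. Without the filter, 4 of the 10 genes were called, all lower: JUP, CDH11, PKP2 and CDH3, while DSG2 was not.

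The other plakophilins were not lower by the same amount. PKP1, the plakophilin of stratified epithelium, was called higher, at 8.42 ± 0.19 and 14.5 ± 1.2 CPM (SD, n = 2), with a log2 fold change of 0.79 ± 0.15 (SE, edgeR adjusted p = 0.0055). PKP3 stood at 12.0 ± 0.64 and 16.8 ± 5.8 CPM without a call (0.48 ± 0.25 SE, edgeR adjusted p = 0.145). PKP4, which sits mostly at adherens junctions, had a log2 fold change of -0.14 ± 0.11 (SE, edgeR adjusted p = 0.326). PKP2 took 11.2 ± 3.1% of the RPKM of PKP1, PKP2 and PKP3 in the control libraries and 3.16 ± 0.58% in those labelled PRMT5 KD, with an exact permutation p of 0.333. On counts rather than RPKM the shares were 22.2 ± 5.3% and 6.75 ± 1.4%.

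**Figure D3:**
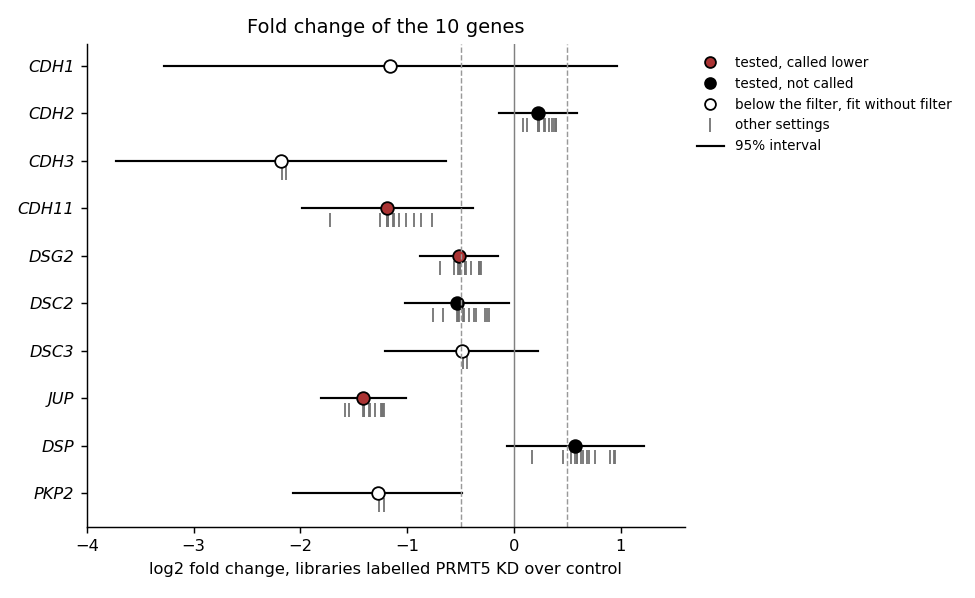
Log2 fold change of each of the 10 genes (libraries labelled PRMT5 KD over control) with its 95% interval; red was tested and called lower, black tested without a call, and open circles lay under the level for testing and come from the fit without the filter. Grey ticks are the other settings and dashed lines mark 0.5 in either direction: JUP stays near -1.4, DSG2 and DSC2 straddle -0.5, and the CDH1 interval spans 0.

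By RPKM, the order in the control libraries was DSG2 (32.6 ± 1.6), JUP (22.0 ± 3.9), CDH2 (17.4 ± 2.5), DSP (1.80 ± 0.21), DSC2 (1.42 ± 0.34), CDH11 (0.898 ± 0.008), PKP2 (0.570 ± 0.152), DSC3 (0.242 ± 0.017), CDH3 (0.0628 ± 0.022) and CDH1 (0.0253 ± 0.017), as mean ± SD of 2 libraries. JUP and CDH2, and DSP and DSC2, lay within their spreads of each other. In the libraries labelled PRMT5 KD the order was DSG2 (22.9 ± 3.9), CDH2 (20.3 ± 2.6), JUP (8.29 ± 1.07), DSP (2.69 ± 0.95), DSC2 (0.979 ± 0.122), CDH11 (0.395 ± 0.184), PKP2 (0.226 ± 0.097), DSC3 (0.166 ± 0.008), CDH3 (0.0131 ± 0.005) and CDH1 (0.0103 ± 0.005). DSG2 and CDH2 overlapped there, as did CDH11, PKP2 and DSC3 along the chain, and CDH3 and CDH1. CDH2 was 0.536 ± 0.101 of DSG2 in the control libraries and 0.911 ± 0.269 in the others (SD, n = 2), without overlap. All of these levels use annotated exon lengths and not the isoforms present.

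The other desmosome genes were read from a list of 10, of which 5 could be tested. PKP1 was called higher, and PPL, DSG3 and PERP were called lower, beside 21.2% higher and 24.3% lower of all genes tested. The median log2 fold change was -0.57 against -0.01 over all genes tested. Periplakin (PPL) is a plakin that links desmosomes to filaments in the outer layers of epithelium. It had the largest fall among the 5 tested genes of this list, from 56.6 ± 12.0 to 2.50 ± 0.38 CPM (SD, n = 2), a log2 fold change of -4.50 ± 0.22 (SE, edgeR adjusted p = 0.000194). It passed the level for testing through the control libraries alone. PERP, a p53 target needed for desmosome assembly, fell from 140.5 ± 7.7 to 94.8 ± 9.7 CPM (-0.57 ± 0.12 SE, edgeR adjusted p = 0.0092). EVPL and CDSN, genes of the cornified layer, had at most 3 counts in any library. Without control replicate 1 or 2, 2 of these genes were called.

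Of 19 other numbered cadherins, 8 were tested and all 8 were called lower (24.3% of all genes tested were), with a median of -1.71. CDH9 fell from 17.6 ± 0.73 to 1.99 ± 0.79 CPM (-3.14 ± 0.28 SE, edgeR adjusted p = 0.000516). It was followed by CDH18 (-2.16 ± 0.47 SE) and CDH10 (-2.14 ± 0.55 SE), type II cadherins known best from brain. CDH7, CDH9, CDH10 and CDH18 passed the level for testing through the control libraries alone, so that they could enter only by being lower in the other group. The count of calls and the median therefore lean to lower values. Without control replicate 1, 4 of the 8 were called, and without control replicate 2, 3 of them. In the wider cadherin superfamily 12 of 25 genes were tested. Of these, 10 were called lower and 1 higher (24.3% and 21.2% of all genes tested were), with a median of -1.22. PCDH18 (-2.92 ± 0.35 SE), the dachsous relative DCHS2 (-2.57 ± 0.21 SE) and the planar polarity receptor CELSR1 (-1.75 ± 0.15 SE) were the lowest, all 3 of them passing the level through the control libraries alone, and the protocadherin PCDH9 was called higher (0.80 ± 0.16 SE).

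The adherens junction list holds partners of the classical cadherins. Of its 18 genes, 14 were tested, 2 were called lower (24.3% of all genes tested were) and 12 were not called, between -0.42 and 0.35. The called genes were vinculin (VCL, -0.86 ± 0.14 SE), which joins the junction to actin under tension, and afadin (MLLT4 in the files, -0.70 ± 0.10 SE). With the length and GC correction MLLT4 was at -0.33 without a call, and the list held 2 genes called higher and 1 lower. In the tight junction list 15 of 22 genes were tested, 8 were called lower and 1 higher, beside 24.3% and 21.2% of all genes tested. JAM2 (-2.46 ± 0.23 SE), CLDN7 (-2.31 ± 0.34 SE) and F11R (-1.17 ± 0.14 SE), membrane proteins of the tight junction, were lowest among the tested genes of this list. CLDN7 passed the level through the control libraries alone. Of the 7 gap junction genes 2 were tested, GJA1 being called higher (1.17 ± 0.35 SE) and GJC1 lower (-0.68 ± 0.11 SE), beside 21.2% and 24.3% of all genes tested. The GJA1 values of the libraries labelled PRMT5 KD had an SD of 24.9 CPM around a mean of 51.4 CPM. GJA1 lost its call without control replicate 1 or 2 (edgeR adjusted p = 0.122 and 0.149).

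Hemidesmosomes anchor epithelial cells to the matrix below and share the plakin family with desmosomes. Of 6 genes, 5 were tested and these 5 were called lower (24.3% of all genes tested were), led by integrin β4 (ITGB4, -3.10 ± 0.31 SE), dystonin (DST, -1.25 ± 0.15 SE) and plectin (PLEC, -1.11 ± 0.14 SE). ITGB4 passed the level through the control libraries alone, and COL17A1, the gene under the level, was higher in the fit without the filter (2.73 ± 0.50 SE, edgeR adjusted p = 0.00517). Over the repressors of CDH1, 9 of 10 genes were tested, with 3 called lower and 1 higher (24.3% and 21.2% of all genes tested were). These counts are read as no result about the list. KLF8 (-1.12 ± 0.18 SE), TWIST1 (-0.76 ± 0.18 SE) and ZEB1 (-0.66 ± 0.11 SE) were called lower. SNAI1 was called higher (0.61 ± 0.20 SE, edgeR adjusted p = 0.041), from 3.48 ± 0.21 to 5.33 ± 0.09 CPM (SD, n = 2). The SNAI1 call was lost without control replicate 1, control replicate 2 or PRMT5 KD replicate 2 (edgeR adjusted p = 0.210, 0.157 and 0.0544) and with the length and GC correction (0.45, adjusted p = 0.100). Of 9 genes for the cleavage and trafficking of cadherins, 8 were tested, 4 were called lower and 1 higher (24.3% and 21.2% of all genes tested were). Among them were the sorting receptor SORT1 (-3.41 ± 0.14 SE), the shedding proteases ADAM17 (-1.08 ± 0.11 SE) and ADAM10 (-0.76 ± 0.13 SE) and, as the gene called higher, the endosomal sorting protein HGS (0.83 ± 0.13 SE).

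**Figure D4:**
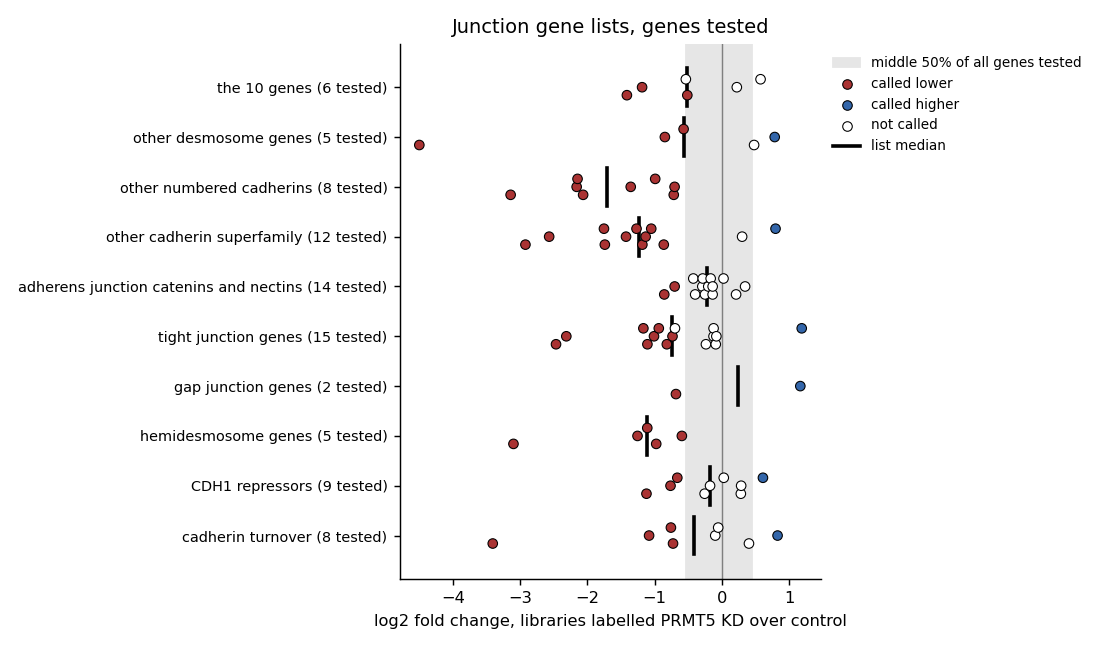
Log2 fold change of each tested gene (points; red called lower, blue called higher, white not called) in the 10 genes described here and in 9 further lists of junction genes, with list medians as black bars and the middle 50% of all genes tested in grey. The 8 numbered cadherins tested lie wholly to the left of 0, and 4 of them passed the level for testing through the control libraries alone. Genes under that level, such as CDH16 with more counts under the PRMT5 KD label, are not shown. Most adherens junction catenins and nectins stay inside the grey band.

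Reads were from bulk cultures, so fewer cells of a type and less RNA per cell cannot be told apart in any of these values. For 7 of the 10 genes an annotated gene shares exon bases with them, over 0.59% to 8.40% of their exon length (GENCODE v44), on the opposite strand for 5 of them, and whether the counting used strand is not given in the sources used here.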

How the data were processed

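Total RNA libraries were made with the NEBNext Ultra II Directional kit. The deposited files hold 1 table of estimated counts per gene name and library, made by the authors. The submitters' processing notes name FastQC, Trim Galore, STAR, Salmon and DESeq2 with GRCh38, whereas the study's methods describe STAR and FeatureCounts on protein-coding Gencode genes, and 86.0% to 86.8% of the values in a library are whole. Rows of a gene name were summed and rounded, 28 date-converted names were left out, and coding type came from GENCODE v44, as did exon length (the union of all exons). Levels are TMM-scaled CPM, and RPKM divides these by exon length. Groups were compared with edgeR 4.0.16 (R 4.3.3, quasi-likelihood, TMM, no covariate) over 11898 protein-coding genes at 0.5 RPKM or more in both libraries of at least 1 group, with Benjamini-Hochberg adjustment over all of them. The biological coefficient of variation was 0.142, so replicates differed by more than sampling noise. The script was tested on simulated counts. Alternatives included DESeq2 1.42.0, other scaling, filters and thresholds, a replicate block, a correction for length and GC content, and each replicate left out.

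The 10 genes and all lists were chosen with earlier results of these data known. Named were the 10 genes, all DSG, DSC and PKP genes, PRMT5, single markers and, from each list, up to 3 called genes per direction with the largest fold change at an average log2 CPM of at least 1. CTNNB1, CDH5, CDH7, EVPL, CDSN, COL17A1, KRT8, KRT17, KRT18, SFN, CD14 and CD68 were named after their values were seen, and some genes of the lists are counted but not reported here by name. Intervals of counts cover counting error only. Promoter sequence came from a RefSeq table, where CDH1, CDH3, CDH11 and PKP2 had no entry.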

Additional observations from a re-analysis of the deposited data

How the results depend on the processing

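The count of the 10 genes called (3, all lower) was 2 to 4 in the alternatives that kept all libraries, and 1 to 4 with a library left out. It was 1 without control replicate 1 and 1 without control replicate 2, JUP being the gene called in both, in fits whose lone control library is assumed to vary like the other group. DSP was called higher with the length and GC correction and without PRMT5 KD replicate 1. JUP was called in all 15 alternatives other than the crosswise pairing, where single genes were not read, between -1.58 and -1.22. DSG2 kept its direction in them, but with total counts in place of TMM the median of all genes moved to 0.17, which DSG2 (-0.33) and CDH2 (0.40) followed. CDH2 and DSP were positive in those 15 alternatives.

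With a library left out, the numbers called ranged from 2 to 4 for the other desmosome genes (4 with all libraries), 3 to 7 for the numbered cadherins (8), 1 to 2 for gap junction genes (2), 3 to 5 for hemidesmosome genes (5) and 2 to 4 for CDH1 repressors (4), while PRMT5 ranged from 0.57 to 0.78 on the log2 scale. At a fold change threshold of 1 in place of 0.5 they were 1, 5, 1, 3 and 1 in the same order, with 0 for the adherens junction (2 lower at 0.5, both by edgeR), 2 for cadherin turnover (5), and PRMT5 (0.66) no longer called. In the cadherin superfamily (11) there were 18 calls without the filter, 17 with filterByExpr and 18 over all gene names, where more genes were tested. The length and GC correction left 1 gap junction gene, 3 hemidesmosome genes and 3 turnover genes, and joined to the replicate block it left 3 and 3 of the last 2 lists. The cause was not tested. PKP4, which was not called, changed sign with total counts (0.043), with the length and GC correction (0.099) and with that correction and the block together (0.099). On counts rather than RPKM the CDH2 share differed by 1.61 percentage points (2.47 by RPKM) and the PKP2 share by -15.5 (-8.05).

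Same-numbered replicates did not deviate together (r = -0.10), and neither labels nor methods pair them. The replicate block called 4 of the 10 genes, DSC2 (-0.52, edgeR adjusted p = 0.0453) being added and SNAI1 (edgeR adjusted p = 0.0762) lost, and 5185 genes in all. Pairing the numbers crosswise called 4 of the 10 genes (1 higher, 3 lower) and 5485 in all, an alternative added after the data were seen. With 2 libraries a group, no exact test over libraries can pass a threshold of 0.05.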

Other observations

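The 3 numbered cadherins with the largest falls among those tested, CDH9, CDH10 and CDH18, lie on chromosome 5 together with CDH12 and CDH6, in a stretch of 11860 kb by the GENCODE v44 annotation. CDH9, CDH10 and CDH18 passed the level for testing through the control libraries alone. CDH12 and CDH6 were picked out after their values were seen. The numbered cadherins tested on other chromosomes were also called lower, so the 5 are read as no result about this stretch. CDH12, a type II cadherin known from brain, was the most abundant of the 5, at 118 ± 15.4 CPM under the control label against 46.2 ± 6.9 CPM (SD, n = 2), a log2 fold change of -1.35 ± 0.15 (SE, edgeR adjusted p = 0.000955). CDH6, known as K-cadherin of kidney, lay under the level for testing, with 175 and 213 counts under the control label and 9 and 11 counts in the other group, and the fit without the filter gave -4.30 ± 0.35 (SE, edgeR adjusted p = 3.2e-05). All 5 were lower in both libraries labelled PRMT5 KD than in either control.

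A few junction genes under the level for testing had more counts in both libraries labelled PRMT5 KD than in either control, and they too were picked after their values were seen. CDH16, the kidney-specific cadherin, had no count under the control label, where 0 allows up to 3 per library, and 14 and 22 counts in the other group. PLEKHA7, an adherens junction protein that binds p120-catenin, had 13 and 12 counts against 107 and 67. COL17A1, the hemidesmosome collagen, had 36 counts in each control library against 138 and 358 counts. In the fit without the filter the log2 fold changes of PLEKHA7 and COL17A1 were 2.74 ± 0.44 and 2.73 ± 0.50 (SE, edgeR adjusted p = 0.00107 and 0.00517).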
